A study of Mus musculus with 11 samples.

Results

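Expression of 4 chromosome 11 genes, AA465934, Dhx40, 2610507I01Rik and Bzrap1, was described in LSKs of 3 p53 genotypes. They are 4 of the 12647 genes listed with counts for the RNA-seq libraries and 4 of the 1058 on the chromosome that carries Trp53. They were selected on their measured shifts between the genotypes in these same libraries, each extreme in a single genotype, so those shifts are given as a description, without a test. The rule states no cutoff. LSKs are Lin-Sca1+Kit+ bone marrow cells, a sorted fraction that holds hematopoietic stem cells and multipotent progenitors. The groups were p53+/+, p53R248W/+ and p53-/-, with 3 libraries each and 9 in all, from young mice on a C57BL/6 background. According to the study's methods, the p53+/+ controls carry a humanized p53 knock-in (HUPKI) allele. The p53R248W/+ mice are heterozygous for the R248W substitution in that humanized gene, which is transcribed from the mouse Trp53 promoter. How the p53-/- allele was made, whether it is on the same humanized allele, and how many mice gave each library are not given in the sources used here. If the libraries of a genotype are not from separate mice, the p-values below measure only the spread between libraries, which may be technical.

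Chromosome 11 matters here because a targeted allele is inherited together with the DNA around it. Genes on the same chromosome can therefore differ between lines through linked sequence as well as through the loss or change of the p53 protein. Backcrossing shortens this linked stretch. The study's methods describe the HUPKI and p53R248W/+ lines as backcrossed to C57BL/6, and give no backcross for the p53-/- line, whose background rests on the labels. In general, a gene many megabases away is separated by recombination more often than a close one. In these groups, an effect of the allele and an effect of any sequence carried with it cannot be told apart.

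The 4 genes differ in kind. AA465934 (NCBI gene 613254) is a long non-coding RNA of 3 exons on the forward strand, at chr11:83291699-83294637, that hosts the small nucleolar RNA gene Snord7. Dhx40 (NCBI gene 67487) encodes a DEAH-box protein of the ATP-dependent RNA helicase family and has 18 exons on the reverse strand, at chr11:86768849-86807877. 2610507I01Rik (NCBI gene 72203) is a long non-coding RNA of 3 exons on the reverse strand, at chr11:59197793-59202431. Bzrap1 is the older name of Tspoap1 (NCBI gene 207777), which has 32 exons on the forward strand, at chr11:87758194-87785928. Its protein binds the mitochondrial membrane protein TSPO and belongs to the RIM-binding proteins. Positions are on GRCm38.p6. Relative to Trp53 (chr11:69580348-69591873), 2610507I01Rik lies 10.38 Mb before and the others after it, at 13.7 Mb for AA465934, 17.18 Mb for Dhx40 and 18.17 Mb for Bzrap1.

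Start-site sequences are shown for the 2 non-coding RNAs whose counts were near 0 in some libraries, so that the letters at their annotated starts are at hand. They are from RefSeq on GRCm38.p6, 5′ to 3′ on the strand of the gene, and 3 of the 4 genes matched an entry. For Dhx40 no stretch is printed, since its window lies partly in an exon of another annotated transcript. For AA465934 the window holds 250 bases before the start and the first 50 transcribed bases, at chr11:83291449-83291748 on the forward strand, with the motif CCAAT in capitals as read on the opposite strand (ATTGG). For 2610507I01Rik, capitals mark the 54 bases that separate its start from that of Mrpl55, a mitochondrial ribosomal protein gene transcribed in the opposite direction, and lower case its first 50 bases, at chr11:59202382-59202485 on the reverse strand.
AA465934: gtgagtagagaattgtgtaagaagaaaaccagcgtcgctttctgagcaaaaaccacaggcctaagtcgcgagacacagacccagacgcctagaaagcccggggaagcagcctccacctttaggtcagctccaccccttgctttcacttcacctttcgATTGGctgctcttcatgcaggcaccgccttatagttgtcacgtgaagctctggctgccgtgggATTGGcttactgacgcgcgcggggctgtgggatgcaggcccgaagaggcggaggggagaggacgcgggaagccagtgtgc
2610507I01Rik: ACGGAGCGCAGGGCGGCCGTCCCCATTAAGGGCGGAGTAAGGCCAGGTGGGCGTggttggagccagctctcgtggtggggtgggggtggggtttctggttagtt
GC content of the printed stretches was 58.0% for AA465934 and 66.3% for 2610507I01Rik. Whole windows of 300 bases were searched on both strands. The p53 half-site, the 10-base consensus that p53 dimers bind, had 0 matches in each of the 3 windows, and 8.36% of 32851 windows of all genes hold it. CCAAT had 2 matches in the AA465934 window and 0 in the others, against 37.4% of all windows with at least 1. TATAA had 1 match, in AA465934, and is in 24.9% of all windows. GGGCGG had 0 matches in AA465934, 1 in Dhx40 and 2 in 2610507I01Rik, and is in 35.7% of all windows. A match or its lack is a description of these letters only.

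Library totals on genes ran from 18021375 to 29750702 counts, and the deepest library was p53R248W/+ replicate 1. Values are CPM (counts scaled to a common library size with TMM factors). A gene is "called" where the quasi-likelihood test of edgeR, adjusted across 12625 genes, gave a p-value below 0.05. Unadjusted, the p-value of this test was below 0.05 for 121 genes in p53R248W/+ against p53+/+ and 2950 in p53-/- against p53+/+. In p53R248W/+ against p53-/- there were 2657. Numbers at an unadjusted p-value below 0.05 are to be read beside these. Trp53 was at 125, 207 and 376 CPM in p53+/+, 219, 240 and 235 CPM in p53R248W/+ and 129, 127 and 112 CPM in p53-/- libraries. The p53-/- libraries thus still had Trp53 reads, and which part of the gene they come from is not given in the sources used here. Cdkn1a, the p53 target p21, was at 51.6 ± 13.4, 41.8 ± 8.97 and 12.3 ± 4.91 CPM (SD, n = 3), and the p53-/- libraries were below all others. Mdm2 and Ccng1, also p53 targets, were not called in any comparison. All 8 LSK markers were expressed, among them Kit at 427 to 861 CPM and Ly6a, which encodes Sca1, at 150 to 444 CPM. Ddx3y, a Y-linked gene, was at 1 CPM or more in 3 libraries, p53+/+ replicate 2 and p53R248W/+ replicates 2 and 3. Xist, expressed from the inactive X chromosome, was at 65.0 and 149 CPM in both replicates 2, so these held RNA with both signals. The other 6 libraries had at most 0.112 CPM of any of 4 Y-linked genes, and below, libraries with Y-linked reads means these 3. Differences in sex can therefore move with genotype, and values without these 3 libraries are given where they change a result.

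AA465934 was near 0 in p53+/+ and p53-/- LSKs and abundant in p53R248W/+ LSKs. It had 3, 11 and 17 counts in the p53+/+ libraries, 1054, 868 and 660 in the p53R248W/+ libraries, and 3, 6 and 9 in the p53-/- libraries. The lowest p53R248W/+ library was at 30.2 CPM and the highest library of the other genotypes at 0.948 CPM, so the mutant libraries stood apart from all 6 others. Group levels were 0.549 ± 0.398, 36.6 ± 5.91 and 0.292 ± 0.141 CPM (SD, n = 3) in p53+/+, p53R248W/+ and p53-/- LSKs. The ratio of mean CPM was 66.7 for p53R248W/+ against p53+/+, with a fitted log2 fold change of 6.06 (SE 0.50), the largest of all genes tested in this comparison, which chose the gene. Against p53-/- it was 6.93 (SE 0.53).

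In the comparison of p53-/- with p53+/+, which the shift in p53R248W/+ libraries does not enter, the log2 fold change of AA465934 was −0.87 (SE 0.57, adjusted p = 0.379 from edgeR, 95% interval −2.10 to 0.37). The counts of both genotypes overlapped. The pooled counts were 31 of 57228082 in p53+/+ and 18 of 61258393 in p53-/-, or 0.542 CPM (exact 95% Poisson interval 0.368 to 0.769) and 0.294 CPM (0.174 to 0.464) without TMM factors, and these intervals cover counting error only. A difference at this level was not detectable with the spread between libraries. The value rested in part on p53+/+ replicate 3, without which it was −0.25. The gene was chosen as one that moves in a single genotype, so the absence of a call here is partly fixed by the choice.

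AA465934 shares its last exon with another gene, which limits what its counts stand for. AI450353, a non-coding RNA on the same strand at chr11:83293430-83294929, covers 123 of the 382 exon bases of AA465934 and leaves 259 that are its own. How the authors' counting treated reads in the shared bases is not stated. AI450353 itself was at 0.810 ± 0.364, 1.10 ± 0.361 and 0.642 ± 0.339 CPM (SD, n = 3), and its libraries overlapped between genotypes in every comparison. The higher level was recorded for AA465934 alone of this pair.

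Dhx40 was also higher in p53R248W/+ LSKs, but from a clearly expressed baseline. It had 156, 252 and 189 counts in p53+/+, 972, 821 and 655 in p53R248W/+, and 183, 304 and 235 in p53-/- libraries. Group levels were 10.3 ± 2.35, 34.8 ± 4.80 and 11.7 ± 1.90 CPM (SD, n = 3). The lowest mutant library, at 29.9 CPM, was above the highest of the other genotypes, at 13.7 CPM. The ratio of mean CPM for p53R248W/+ against p53+/+, the comparison that chose it, was 3.37, and the log2 fold change was 1.75 (SE 0.24). Against p53-/- it was 1.57 (SE 0.24).

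In p53-/- against p53+/+ LSKs, the log2 fold change of Dhx40 was 0.19 (SE 0.24, adjusted p = 0.675 from edgeR, 95% interval −0.33 to 0.71). The libraries overlapped, with 1 of 3 p53-/- libraries above all p53+/+ libraries. As for AA465934, the absence of a call here is partly fixed by the choice. AA465934 and Dhx40 ranked the 3 mutant libraries alike, with replicate 2 highest and replicate 3 lowest for both.

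2610507I01Rik had the opposite pattern to AA465934 in one respect, since it was present in p53+/+ and p53R248W/+ LSKs and near 0 in p53-/- LSKs. It had 483, 639 and 522 counts in p53+/+, 846, 719 and 717 in p53R248W/+, and 3, 2 and 8 in p53-/- libraries. Group levels were 28.4 ± 3.79, 32.6 ± 2.12 and 0.216 ± 0.158 CPM (SD, n = 3). The highest p53-/- library was at 0.393 CPM and the lowest of the other 6 at 24.3 CPM. The mean CPM was 132 times lower in p53-/- than in p53+/+ LSKs, with a log2 fold change of −7.01 (SE 0.38), in the comparison that chose the gene. For p53R248W/+ against p53-/- it was 7.21 (SE 0.38). The 13 pooled p53-/- counts correspond to 0.212 CPM without TMM factors (exact 95% Poisson interval 0.113 to 0.363).

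In p53R248W/+ against p53+/+ LSKs, 2610507I01Rik differed by 0.20 on the log2 scale (SE 0.26, adjusted p = 1.0 from edgeR, 95% interval −0.37 to 0.76). The libraries overlapped, although 2 of 3 mutant libraries were above all p53+/+ libraries. This gene too was chosen as extreme in a single genotype, which partly fixes the absence of a call here. Mrpl55, whose start is 54 bases from that of 2610507I01Rik, was at 63.2 ± 11.7, 66.0 ± 17.5 and 48.4 ± 6.14 CPM (SD, n = 3). Its log2 fold change in p53-/- against p53+/+ LSKs was −0.39 (SE 0.22, adjusted p = 0.307 from edgeR), so the partner transcribed in the other direction kept most of its level where 2610507I01Rik had almost none. Without strand information in the counting, reads from either direction can be told apart only by position.

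Bzrap1 was likewise lowest in p53-/- LSKs, at a lower level and with more spread. It had 128, 128 and 161 counts in p53+/+, 176, 255 and 327 in p53R248W/+, and 8, 19 and 23 in p53-/- libraries. Group levels were 7.27 ± 1.48, 11.2 ± 4.42 and 0.808 ± 0.350 CPM (SD, n = 3). The highest p53-/- library, at 1.13 CPM, was below the lowest of the other 6, at 6.33 CPM. The mean CPM was 9.0 times lower in p53-/- than in p53+/+ LSKs, with a log2 fold change of −3.15 (SE 0.44), in the comparison that chose the gene. The p53R248W/+ libraries were 3.77 above p53-/- (SE 0.45) on the same scale.

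In p53R248W/+ against p53+/+ LSKs, the log2 fold change of Bzrap1 was 0.62 (SE 0.39, adjusted p = 1.0 from edgeR, 95% interval −0.23 to 1.47). Again the absence of a call is partly fixed by the choice of a gene extreme in a single genotype. Replicate 1 of p53R248W/+, at 6.33 CPM, was below all p53+/+ libraries, while replicates 2 and 3, at 12.3 and 14.9 CPM, were above them. The latter are the mutant libraries with Y-linked reads. In a fit without the 3 libraries with such reads, the log2 fold change was −0.30 (adjusted p = 0.893 from edgeR), so its direction depends on them. Chosen after the data were seen, that fit has a single mutant library, which is assumed to vary like the other groups.

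**Figure D1:**
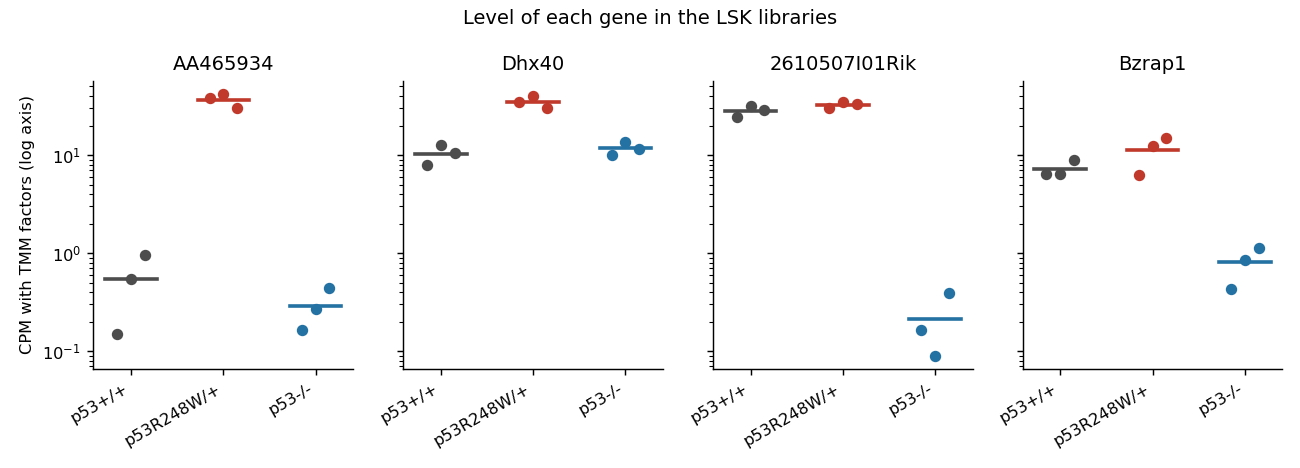
Level of each gene in CPM with TMM factors, on a log axis, by genotype. Each point is a library, in the order of replicates 1 to 3, and each line the mean of 3. AA465934 and Dhx40 are high in the p53R248W/+ libraries, and 2610507I01Rik and Bzrap1 are low in the p53-/- libraries.

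By their choice the genes form pairs, according to the genotype in which they stood apart. AA465934 and Dhx40 go with p53R248W/+, and 2610507I01Rik and Bzrap1 with p53-/-. The libraries of p53R248W/+ and p53+/+ did not overlap for 2 of the 4 genes, against 5.04% of all genes tested. For p53-/- against p53+/+ it was also 2 of 4, against 31.4% of all genes. For p53R248W/+ against p53-/- it was 4 of 4, against 24.2%. Called genes among the 4 numbered 1, 2 and 4 in these comparisons, where 0.00792%, 3.5% and 3.44% of all genes were called. As these comparisons chose the genes, nothing is read from the counts.

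Consistency between libraries of a genotype differed with the level. In the p53R248W/+ libraries the coefficient of variation was 16.1% for AA465934, 13.8% for Dhx40 and 6.49% for 2610507I01Rik, all under the median of 21.8% over all genes, while it was 39.5% for Bzrap1. In p53+/+ libraries the 3 genes with more than 100 counts in each had values of 13.3% to 22.8%, around the median of 17.8%. Where a gene had from 2 to 23 counts, its coefficient of variation was 43.3% to 73.3%, a range to which counting error contributes. Per length (RPKM, with the deposited gene lengths), the order of mean levels in p53+/+ LSKs was 2610507I01Rik at 9.79, Dhx40 at 2.77, AA465934 at 1.41 and Bzrap1 at 0.954, where Dhx40 and AA465934 overlapped, as did AA465934 and Bzrap1. In p53R248W/+ LSKs AA465934 came first at 94.1 RPKM, followed by 2610507I01Rik at 11.2, Dhx40 at 9.34 and Bzrap1 at 1.47, and 2610507I01Rik and Dhx40 overlapped. In p53-/- LSKs Dhx40 was first at 3.15 RPKM, then AA465934 at 0.751, Bzrap1 at 0.106 and 2610507I01Rik at 0.0742, and the last 2 overlapped.

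Each log2 fold change kept its sign when any one of the 9 libraries was left out. For p53R248W/+ against p53+/+ it ranged from 5.61 to 6.68 for AA465934 and from 1.59 to 1.92 for Dhx40. For p53-/- against p53+/+ it ranged from −7.77 to −6.62 for 2610507I01Rik and from −3.46 to −2.85 for Bzrap1. In fold, 2 of these values moved by over 1.5 times with 1 library, that of AA465934 to 6.68 without p53+/+ replicate 3 and that of 2610507I01Rik to −7.77 without p53-/- replicate 3. Both are folds against a group with a few reads per library. Without the 3 libraries with Y-linked reads they were 6.10, 1.91, −6.93 and −3.24, in the same order.

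**Figure D2:**
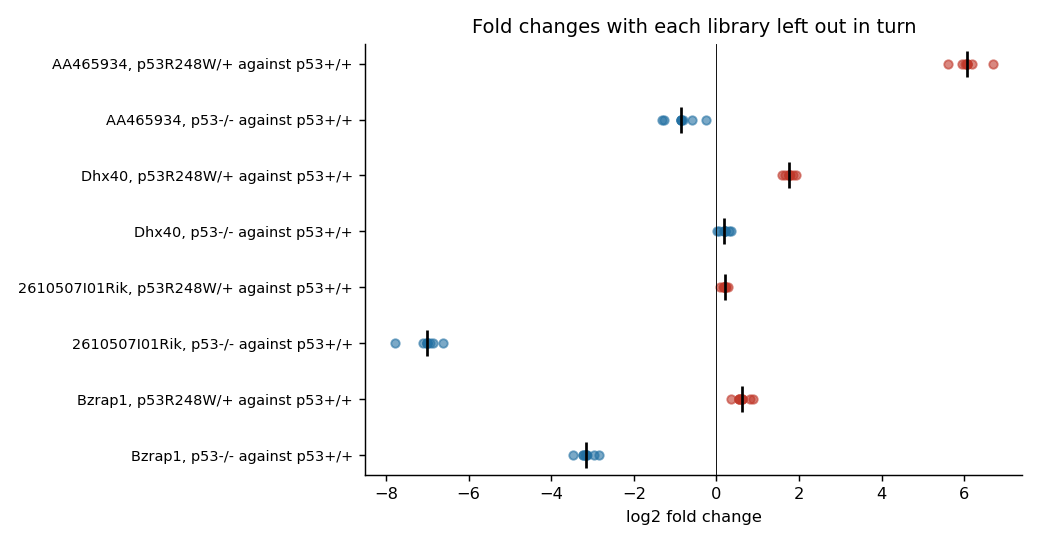
Fitted log2 fold changes of the 4 genes in p53R248W/+ (red) and p53-/- (blue) against p53+/+ LSKs. Each point leaves out one of the 9 libraries, and the black bar is the fit to all of them. The bars sit at 6.06 and 1.75 for AA465934 and Dhx40 in the mutant and at −7.01 and −3.15 for 2610507I01Rik and Bzrap1 without p53, and no point lies across 0 from its bar.

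Genes next to these 4 were compared because the choice did not use them. Slfn3 and AI662270 are the nearest genes before AA465934 that passed the filter on low counts, and Ap2b1 lies 4081 bases after it. Ap2b1, a clathrin adaptor subunit gene, was at 77.2 ± 10.5, 81.7 ± 9.79 and 75.1 ± 19.1 CPM (SD, n = 3). Its log2 fold change in p53R248W/+ against p53+/+ LSKs was 0.08 (SE 0.21, adjusted p = 1.0 from edgeR). Slfn3, AI662270, Ap2b1 and AI450353 were not called in any comparison, and in p53R248W/+ against p53+/+ their log2 fold changes were between −0.13 and 0.44.

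Around Dhx40, the genes Ptrh2, Cltc, Ypel2 and Gdpd1 were not called in any comparison. Cltc, which encodes the clathrin heavy chain and ends 11281 bases from Dhx40, was at 232 ± 58.6, 261 ± 32.9 and 295 ± 84.5 CPM (SD, n = 3), a log2 fold change of 0.17 (SE 0.24, adjusted p = 1.0 from edgeR) in the mutant. The largest difference of the 4 in p53R248W/+ against p53+/+ LSKs was 0.86 for Gdpd1 (SE 0.50, adjusted p = 1.0 from edgeR), a lipid phosphodiesterase gene at 3.50 ± 2.41 and 6.37 ± 1.13 CPM, whose libraries overlapped. Around 2610507I01Rik, Iba57, Guk1, Mrpl55 and 2310033P09Rik were not called, with log2 fold changes of −0.54 to 0.31 in p53-/- against p53+/+ LSKs. Iba57, Mrpl55 and 2310033P09Rik had libraries that did not overlap in this comparison, as 31.4% of all genes did. Iba57, an iron-sulfur cluster assembly gene, was higher in all 3 p53-/- libraries, at 32.6 ± 3.43 against 26.2 ± 1.57 CPM. Mrpl55 and 2310033P09Rik were lower in all 3, at 48.4 ± 6.14 against 63.2 ± 11.7 CPM and 27.3 ± 4.61 against 39.6 ± 9.39 CPM.

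Beside Bzrap1, Mpo, 7855 bases beyond its end, was the 1 gene called among the nearest genes described for the 4. Mpo encodes myeloperoxidase, the granule enzyme of neutrophils and monocytes, and was at 2470 ± 698, 4220 ± 1367 and 1250 ± 180 CPM (SD, n = 3) in p53+/+, p53R248W/+ and p53-/- LSKs. It was called in p53R248W/+ against p53-/- (log2 fold change 1.75, SE 0.26, adjusted p = 0.00778 from edgeR, 3 of 3 libraries higher). In p53-/- against p53+/+ its log2 fold change was −0.98 (SE 0.26, adjusted p = 0.0547 from edgeR, 3 of 3 libraries lower). Mtmr4, Supt4a and Mks1 were not called in any comparison. Summed over the 5 granulocyte and monocyte markers in the table, CPM ranged from 2450 to 4610 in p53+/+, 3940 to 7100 in p53R248W/+ and 1840 to 2050 in p53-/- libraries, and Ly6g, the neutrophil marker, was not in the table. Mpo makes up a large part of these sums. Over the 5 markers the median log2 fold change was 0.01 in p53R248W/+ against p53+/+ (range −0.06 to 0.77, the highest being Mpo). In p53-/- against p53+/+ it was −0.50 (range −0.98 to −0.19, the lowest being Mpo). Of these 5 markers, Mpo was called in p53R248W/+ against p53-/- and 0 were called in the other comparisons by edgeR, with 1 each at an unadjusted p-value below 0.05. DESeq2 called Mpo in p53-/- against p53+/+ and none in p53R248W/+ against p53+/+, and limma-voom none in either. The part of these cells in the level of Bzrap1 was not tested. In sorted bulk cells, fewer cells of a type and less RNA per cell cannot be told apart.

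**Figure D3:**
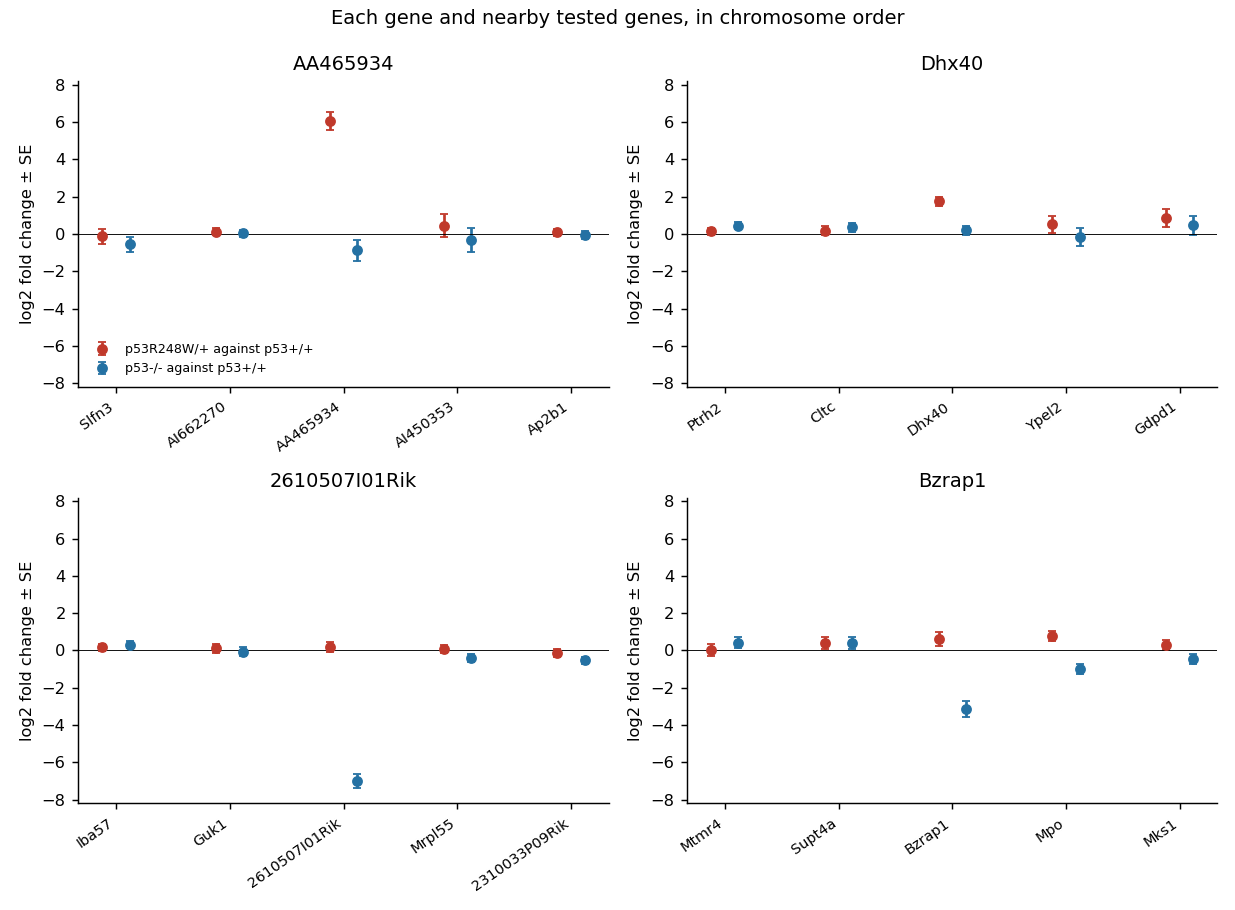
Fitted log2 fold change ± SE for each of the 4 genes and tested genes nearest to it, in chromosome order, in p53R248W/+ (red) and p53-/- (blue) against p53+/+ LSKs. AA465934 at 6.06, Dhx40 at 1.75, 2610507I01Rik at −7.01 and Bzrap1 at −3.15 are shown beside these genes, which lie between −0.98, for Mpo, and 0.86, for Gdpd1.

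Within 1 Mb of any of the 4 genes, 104 other genes were tested. In p53R248W/+ against p53+/+ LSKs edgeR called 0 of them, limma-voom called 0, and DESeq2 called 1, Ccl9. With edgeR, 3 of them had an unadjusted p-value below 0.05, beside 121 of all 12625 genes. Their median log2 fold change was 0.06, and 0.01 over all genes. Ccl9, a myeloid chemokine gene within 1 Mb of AA465934, was at 130 ± 33.8 and 320 ± 111 CPM in p53+/+ and p53R248W/+ LSKs (SD, n = 3; log2 fold change 1.30, SE 0.27, adjusted p = 1.0 from edgeR), with 3 of 3 mutant libraries higher. The libraries of these genotypes did not overlap for 10 of the 104 genes, or 9.62%, against the 5.04% given above.

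In p53-/- against p53+/+ LSKs, 5 of the 104 genes were called, or 4.81%, against 3.5% of all genes. Igtp, an interferon-inducible GTPase gene, and Trim58, an erythroid ubiquitin ligase gene, were higher, by 0.95 (SE 0.21, adjusted p = 0.0357 from edgeR) and 1.78 (SE 0.28, adjusted p = 0.0129 from edgeR). The chemokine gene Ccl3, the histone H2B gene Hist3h2ba and Hist3h2bb-ps, an H2B pseudogene by its name, were lower, with log2 fold changes of −1.58, −2.53 and −4.05 (adjusted p = 0.0345, 0.0348 and 0.0272 from edgeR). Hist3h2ba and Hist3h2bb-ps lie within 1 Mb of 2610507I01Rik and were low in all groups, with 0.429 ± 0.294 and 0.0871 ± 0.0822 CPM in p53-/- against 2.53 ± 0.601 and 1.47 ± 0.350 CPM in p53+/+ LSKs (SD, n = 3). They are close paralogs, so reads shared between them or with other H2B genes make both values uncertain. Within 1 Mb of Dhx40 and of Bzrap1, 0 of 23 and 0 of 22 genes were called by edgeR in this comparison. Of these, 8 and 4 had an unadjusted p-value below 0.05, beside 2950 of all 12625 genes. Epx, which encodes eosinophil peroxidase and lies near Bzrap1, had the lowest log2 fold change of that window, −3.34 (SE 2.34, adjusted p = 0.416 from edgeR), close in size to that of Bzrap1. Chosen after its values were seen, it was at 139, 58.2 and 13.1 CPM in replicate 2 of p53+/+, p53R248W/+ and p53-/- and at 1.34 CPM or less in the other 6 libraries, so its libraries overlapped. The count of 5 became 18 without p53R248W/+ replicate 1 and 1 without p53+/+ replicate 2, p53+/+ replicate 3 or any p53-/- library.

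In p53R248W/+ against p53-/- LSKs, 8 of the 104 genes were called, or 7.69%, against 3.44% of all genes. Trim58 was lower in the mutant, and Hist3h2ba, Hist3h2bb-ps, Slfn9, Taf15, Ccl9, Ccl3 and Mpo were higher. Taf15, an RNA-binding protein gene, was at 10.6 ± 2.74 CPM in p53R248W/+ and 2.75 ± 1.22 CPM in p53-/- LSKs (SD, n = 3; log2 fold change 1.95, SE 0.40, adjusted p = 0.0271 from edgeR). The count was 18 without p53R248W/+ replicate 1, and from 2 to 5 without p53R248W/+ replicate 2 or 3 or any p53-/- library.

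Over the whole chromosome, 1058 genes were tested, of 12625 in all. In p53R248W/+ against p53+/+ LSKs, AA465934, chosen for this shift, was the 1 gene called (0.0945%). At an unadjusted p-value below 0.05 in edgeR there were 16, beside 121 of all 12625 genes. DESeq2 called 4 chromosome 11 genes of 6 in all, AA465934, Dhx40, Ccl9 and Rapgefl1. As AA465934 and Dhx40 were chosen for this shift on this chromosome, nothing is read from that share. In p53-/- against p53+/+ LSKs, 37 genes were called (3.5%, the same share as over all genes), 15 higher and 22 lower. The 37 include 2610507I01Rik and Bzrap1, which were chosen on this comparison. Apart from 2610507I01Rik and Bzrap1, those with the largest shifts were Nlrp1a, Hist3h2bb-ps, Hist3h2ba, Upp1 and Tcf7. Nlrp1a, an inflammasome sensor gene 1.5 Mb after Trp53, lay between 2610507I01Rik and Bzrap1 in size and is not among the 4. It was at 8.96 ± 8.53, 6.77 ± 2.13 and 0.317 ± 0.0809 CPM (SD, n = 3), a log2 fold change of −4.81 (SE 0.97, adjusted p = 0.0272 from edgeR). Upp1, which encodes uridine phosphorylase, rose from 6.26 ± 3.04 to 34.2 ± 12.7 CPM (log2 fold change 2.45, adjusted p = 0.0145 from edgeR), and Tcf7, a lymphoid transcription factor gene, fell from 9.92 ± 1.95 to 2.18 ± 1.34 CPM (log2 fold change −2.18, adjusted p = 0.0198 from edgeR). The count of 37 became 125 without p53R248W/+ replicate 1, and it was from 3 to 10 without p53+/+ replicate 2, p53+/+ replicate 3 or any p53-/- library. It was 22 and 24 without p53R248W/+ replicates 2 and 3.

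In p53R248W/+ against p53-/- LSKs, 42 of the chromosome 11 genes were called (3.97%, against 3.44% of all genes), 28 higher and 14 lower. The 42 include all 4 genes described, so this share is partly fixed by their choice. Besides the 4 described and the genes above, Fbxo48, an F-box protein gene, was among those with the largest shifts, at 3.19 ± 0.593 against 0.523 ± 0.335 CPM (SD, n = 3; log2 fold change 2.58, adjusted p = 0.0365 from edgeR). The count was 135 without p53R248W/+ replicate 1 and from 11 to 21 without p53R248W/+ replicate 2 or 3 or any p53-/- library.

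**Figure D4:**
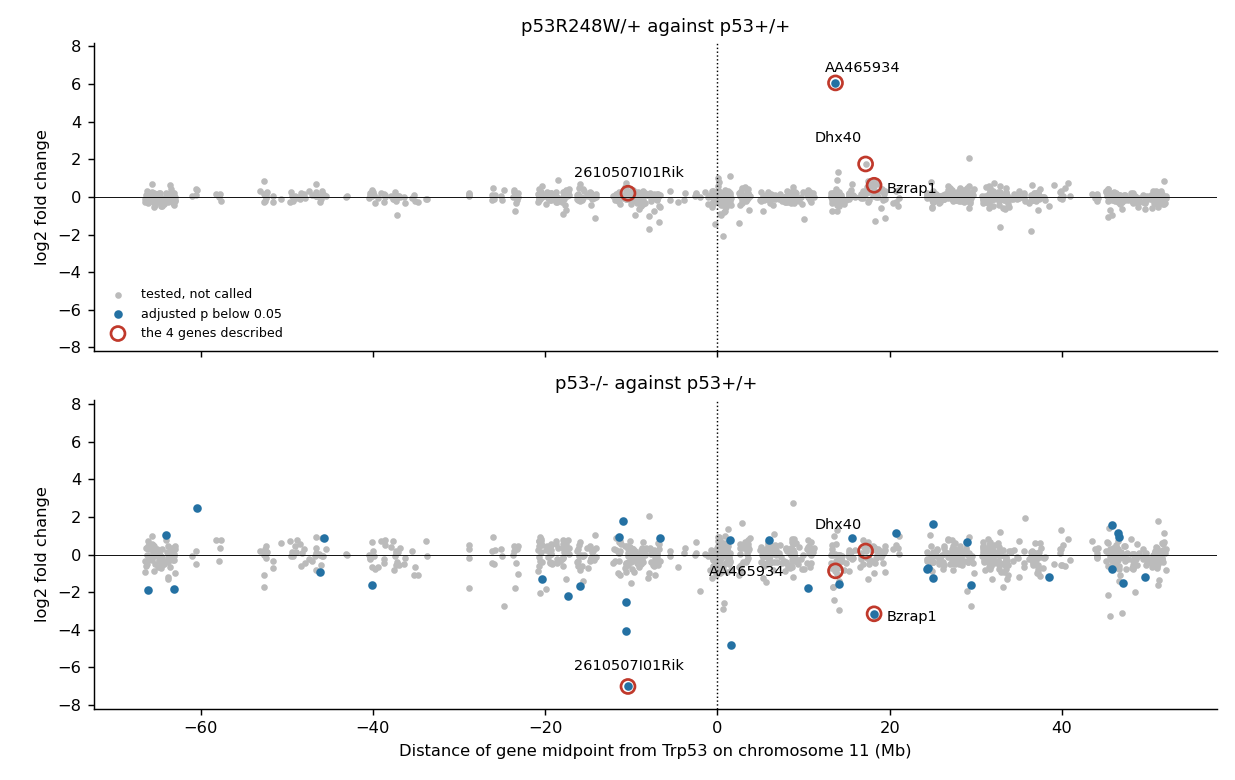
Fitted log2 fold change of every tested chromosome 11 gene against its distance from Trp53 in Mb (negative before, positive after), in p53R248W/+ (top) and p53-/- (bottom) against p53+/+ LSKs. Blue points are called and circles mark the 4 genes. In the top panel AA465934 is the only blue point, at 6.06, and in the bottom panel 37 blue points are spread along the chromosome, with 2610507I01Rik lowest at −7.01.

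Genes with the most similar pattern over the 9 libraries were found by Pearson's r of log2 CPM, among 11483 genes with an average of at least 1. These values describe the pattern that chose the 4 genes, and the libraries share genotype, depth and sex signal. AA465934 and Dhx40 were most like Med1 (r = 0.973 and 0.983) and like each other (r = 0.966). Med1, a Mediator subunit gene on the same chromosome at chr11:98152154-98193313, was at 74.2 ± 1.78, 96.6 ± 2.18 and 75.8 ± 0.533 CPM (SD, n = 3), with a log2 fold change of 0.38 (adjusted p = 1.0 from edgeR) in p53R248W/+ against p53+/+ LSKs. Its difference was small beside those of AA465934 and Dhx40 and its libraries were close together. Next for AA465934 came Dzip3, A930015D03Rik and Lcorl on other chromosomes (r = 0.887 to 0.909). Next for Dhx40 came Lnx1, Rapgefl1 and Vpreb1 (r = 0.888 to 0.893), of which Rapgefl1 lies on chromosome 11 at chr11:98836785-98853009. Rapgefl1 was at 2.28 ± 1.31, 9.65 ± 0.651 and 4.37 ± 2.58 CPM (SD, n = 3), a log2 fold change of 2.08 (adjusted p = 1.0 from edgeR) in the mutant. Above r = 0.9 there were 4 genes for AA465934 and 2 for Dhx40, and 2 of each were on chromosome 11, which holds 963 of the genes searched. These 2 were Med1 and the other gene of the pair, which was chosen for the same chromosome and genotype.

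The p53-/- pair had many more genes like it. Over all genes, edgeR called 442 in p53-/- against p53+/+ and 1 in p53R248W/+ against p53+/+. The number of similar genes is therefore not read as particular to this pair. 2610507I01Rik and Bzrap1 correlated at 0.963, and above 0.9 there were 222 and 285 genes, 20 and 22 of them on chromosome 11. Each count includes the other gene of the pair. The most similar to 2610507I01Rik were Tpm4 (r = 0.989), Bex6, Cnn3, 9030617O03Rik and BC003331, and to Bzrap1 Ofd1 (r = 0.993), Elovl6, Mndal, BC003331 and Itga4, all on other chromosomes. Tpm4, a tropomyosin gene, was at 131 ± 0.964, 129 ± 1.23 and 39.4 ± 5.59 CPM (SD, n = 3), a log2 fold change of −1.74 (adjusted p = 0.000809 from edgeR) in p53-/- against p53+/+ LSKs. Ofd1, a centriole gene on chromosome X, was at 15.3 ± 0.50, 18.0 ± 5.52 and 5.07 ± 1.03 CPM, a log2 fold change of −1.59 (adjusted p = 0.0183 from edgeR). Both kept a measurable level in p53-/- LSKs, whereas 2610507I01Rik was almost without counts.

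Relatives and partners of the 2 protein-coding genes were read from lists. Of 18 other DEAH/RHA helicase genes, which unwind RNA in splicing, translation and antiviral sensing, 16 were tested and 0 were called by edgeR in each comparison. Numbers at an unadjusted p-value below 0.05 were 0 in p53R248W/+ against p53+/+, 2 in p53-/- against p53+/+ and 1 in p53R248W/+ against p53-/-. DESeq2 called 0, 1 (Dhx29) and 1 (Dhx9) of them, and limma-voom 0, 0 and 1 (Dhx9). The median log2 fold change of the list in p53R248W/+ against p53+/+ LSKs was −0.09, against 0.01 over all genes. Dhx9, which encodes RNA helicase A, was at 36.5 ± 6.09, 44.4 ± 2.69 and 21.7 ± 8.89 CPM (SD, n = 3), and its difference between p53R248W/+ and p53-/- was 1.04 on the log2 scale (SE 0.26, adjusted p = 0.0522 from edgeR). Dhx40, at 1.75, lay outside the range of these 16 genes in p53R248W/+ against p53+/+ LSKs, −0.36 to 0.28, a shift for which it was chosen.

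For Bzrap1, a list of TSPO, its binding partners, mitochondrial cholesterol import genes and RIM-binding proteins held 16 genes, of which 14 were tested. Rimbp2 and Rimbp3, its closest relatives in the list, were not in the table. In each comparison edgeR called 0 of them, with 1, 2 and 3 at an unadjusted p-value below 0.05, limma-voom called 0, and DESeq2 called 1, Atad3a, lower in p53-/- than in p53+/+ LSKs. The median log2 fold change in p53-/- against p53+/+ LSKs was −0.06, and 0.00 over all genes. Tspo itself, the outer mitochondrial membrane translocator protein gene, was at 407 ± 67.7, 492 ± 249 and 352 ± 41.7 CPM (SD, n = 3).

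Of 26 p53 target genes, 25 were tested. In p53R248W/+ against p53+/+ LSKs edgeR, DESeq2 and limma-voom called 0 of them, with 2 at an unadjusted p-value below 0.05 in edgeR, Phlda3 and Plk2. In p53-/- against p53+/+ LSKs Cdkn1a fell by 2.07 (SE 0.30, adjusted p = 0.00914 from edgeR) and Sesn1, a stress-response gene, rose by 0.76 (SE 0.16, adjusted p = 0.0332 from edgeR). Beside these, 2610507I01Rik and Bzrap1 differed by −7.01 and −3.15 on the same scale. Of the 25 targets, edgeR called these 2, where it called 3.5% of all genes, and 10 had an unadjusted p-value below 0.05, beside 2950 of all 12625 genes. DESeq2 called 7 of the targets, beside 1542 genes in all. In p53R248W/+ against p53-/- LSKs Cdkn1a was the 1 target called, at 1.76 (adjusted p = 0.0126 from edgeR), where 3.44% of all genes were called. At an unadjusted p-value below 0.05 there were 7, beside 2657 of all genes. Cdkn1a was at 8.27 to 17.8 CPM in the p53-/- libraries and at 35.6 to 67.0 CPM in the others. 2610507I01Rik and Bzrap1 were chosen as low in p53-/- libraries, so they have this order by choice, and nothing is read from it.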

How the data were processed

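RNA-seq of LSKs was analysed for 9 libraries, and the H3K27me3 ChIP-seq samples of the series were not analysed here. The table deposited by the authors gives raw read counts, as whole numbers for each gene in each library, and a gene length in bases. The submitters' processing notes name STAR 2.5.2b, featureCounts of Subread 1.5.0, edgeR and build mm10. The annotation and strand setting are not given in the sources used here, and the labels name a SMART-Seq kit where the methods describe oligo(dT) selection. No gene has fewer than 37 counts in total, so the table appears filtered. Columns with the authors' own fold changes and p-values were not used. All 9 count columns matched a sample.

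The test on counts was that of edgeR 4.0.16 (R 4.3.3, filterByExpr, TMM factors, 1 quasi-likelihood fit to 9 libraries, Benjamini-Hochberg adjustment over 12625 genes), which was tested on simulated data. DESeq2 1.42.0, limma 3.58.1 (voom), other scalings and filters, a fit to the 6 libraries of 2 genotypes, the replicate number as a block and leaving out each library were alternatives. Python 3.11.15 served for tables and figures. Genes were placed on GRCm38.p6, which mm10 corresponds to, by NCBI gene number (12393) or older symbol (240), and 14 were not placed. CPM intervals cover counting error only. Correlations used log2 CPM with a prior count of 2.

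The 4 genes, the lists and the tests were chosen with earlier results of these data known. Other genes were named by rules on position, likeness over libraries, size of shift on chromosome 11 (up to 5) and smallest p-value in a list (up to 4). Ccl9 and Taf15, as called neighbors or DESeq2 calls, and Epx, as the lowest value near Bzrap1, were named after their values were seen. A gene that these rules named is not reported here.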

Additional observations from a re-analysis of the deposited data

How the results depend on the processing

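Of 386 values of 21 results under alternatives, 309 kept their direction and side of the threshold, or for counts stayed within 1.5 times. The log2 fold change of Dhx40 in p53R248W/+ against p53+/+ LSKs was not called in the fit reported, and was called with DESeq2 (1.76) and with the replicate block (1.77). A comparison that chose a gene is no test of it, so whether the gene was called there is a description only. Without the 3 libraries with Y-linked reads, an alternative chosen after the data were seen, Bzrap1 in p53R248W/+ against p53+/+ reversed to −0.30, and Dhx40 and Bzrap1 in p53R248W/+ against p53-/- were no longer called (1.56 and 2.94). In that setting p53-/- against p53+/+ had 264 calls, 22 on chromosome 11, and p53R248W/+ against p53-/- had 46, 6 on chromosome 11 and 3 within 1 Mb of the genes described. The fit has fewer libraries.

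For p53R248W/+ against p53+/+, all genes called and those on chromosome 11 numbered 6 and 4 with DESeq2 (1 within 1 Mb), 2 and 2 with the replicate block, and 0 and 0 with at least 10 counts in every library, a filter that removes AA465934, 2610507I01Rik and Bzrap1, which have no value there. The counts with DESeq2 and with the block include AA465934 and Dhx40, which were chosen for this shift. For p53-/- against p53+/+, calls in all, on chromosome 11 and within 1 Mb were 1542, 125 and 17 with DESeq2, 882, 75 and 13 with the replicate block, and 894, 78 and 13 in the fit to 6 libraries, which drops AA465934. With limma-voom the last 2 were 24 and 2, and within 0.5 Mb there were 3. For p53R248W/+ against p53-/- they were 1326, 113 and 19 with DESeq2 and 672, 67 and 14 with the block, and the fit to 6 libraries gave 208 in all and 25 on chromosome 11. The cause of these shifts was not tested.

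With each library left out, p53R248W/+ against p53+/+ kept 1 call in all, 1 on chromosome 11 and 0 within 1 Mb. For p53-/- against p53+/+ the counts were 37 to 1485, 3 to 125 and 1 to 18, and for p53R248W/+ against p53-/- 77 to 1559, 11 to 135 and 2 to 18. The highest counts came without p53R248W/+ replicate 1. Log2 fold changes in p53R248W/+ against p53+/+, p53-/- against p53+/+ and p53R248W/+ against p53-/- ranged from 5.61 to 6.68, −1.32 to −0.25 and 6.65 to 7.34 for AA465934, 1.59 to 1.92, 0.03 to 0.35 and 1.44 to 1.69 for Dhx40, 0.10 to 0.29, −7.77 to −6.62 and 6.82 to 7.97 for 2610507I01Rik, and 0.35 to 0.89, −3.46 to −2.85 and 3.46 to 4.08 for Bzrap1.

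Replicate numbers do not name a shared mouse or batch in the labels. Deviations of same-numbered libraries correlated at 0.361, 0.543 and 0.039 between p53+/+ and p53R248W/+. Differently numbered libraries of these genotypes were at −0.476 to 0.009. Replicates 1 and 2 were thus more alike by number, and whether they share a mouse or batch was not tested. Same-numbered libraries were at 0.006, −0.095 and −0.026 between p53+/+ and p53-/-, and at 0.068, −0.108 and 0.132 between p53R248W/+ and p53-/-. As the labels name no pairs, the main fit used none, and the replicate block was an alternative. The block changed the call of Dhx40 alone among the 4 genes, in the comparison that chose it.

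At 2 to 23 counts per library, levels of AA465934, 2610507I01Rik and Bzrap1 near 0 are poorly resolved, and folds from them depend on few reads.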
